A study of Mus musculus with 8 samples.

Results

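The G protein-coupled receptors other than chemokine receptors were described in liver macrophages of mice on 2 diets, across 38 of the 2386 genes that the authors' deposited table lists. The members were found by gene symbol: adhesion receptors, prostanoid, lysophospholipid, adrenergic, serotonin, adenosine, nucleotide, endothelin, protease-activated, metabolite and VIP receptors, receptors named Gpr with a number, and a few single names, among them the accessory protein gene Ramp2. RNA was sequenced from C57BL/6 mice, 4 libraries coming from animals on normal diet (ND) and 4 from animals on western diet (WD), and all 8 libraries are labelled as liver macrophages. C57BL/6 is an inbred laboratory strain. The sources used here do not give sex, age, the length and make-up of the diets or the way the macrophages were isolated, and the design text counts 4 mice in each diet group. WDV and NDV, the names of the groups in the table, were read as WD and ND, with V unexplained. The table holds 1 value per gene for the whole comparison, so no value of a single library can be shown, and errors are the authors' standard errors (SE). In bulk RNA, fewer cells of a type and less RNA per cell cannot be told apart.

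G protein-coupled receptors are membrane proteins that bind a ligand outside the cell and switch on heterotrimeric G proteins inside it, which in turn act on enzymes such as adenylyl cyclase and phospholipase C. Receptor kinases and arrestins then silence the receptor, and RGS proteins silence the G protein. In the liver, receptors for thromboxane, endothelin, sphingosine 1-phosphate and thrombin act on sinusoidal and stellate cells and so on blood flow and barrier function, whereas receptors for prostaglandins, nucleotides and lysophospholipids also steer the movement and activation of leukocytes. Adhesion receptors carry long extracellular parts that touch matrix or neighbouring cells.

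By the p-values of the authors' deposited table, Gpr155, Tbxa2r and Adgra2 ranked first among the members that fell, and Gpr171, P2ry10 and P2ry14 among those that rose. At an adjusted p below 0.05, 23 of the 38 members fell and 12 rose with western diet, each by more than 2-fold, per the authors' deposited table. The table lists only genes with an unadjusted p below 0.05 and a log2 fold change beyond 1 in size, so that a member had to differ to be in it, and these counts describe the members without testing them. Among all genes of the authors' deposited table, 61.4% were called lower and 22.0% higher, against 60.5% and 31.6% of the members. The share of lower members was thus near that of the whole table. Over the 17531 genes that the authors tested, as recovered from the adjusted p-values, 8.35% were called lower and 3.0% higher with a change beyond 2-fold. Over the 38 members the median log2 fold change was -2.08, and over all genes of the authors' deposited table it was -1.55. A mean over the members weighted by the inverse squared SE was -0.99, nearer to 0. Gpr33, Gpr17 and F2rl3 were listed without passing.

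**Figure D1:**
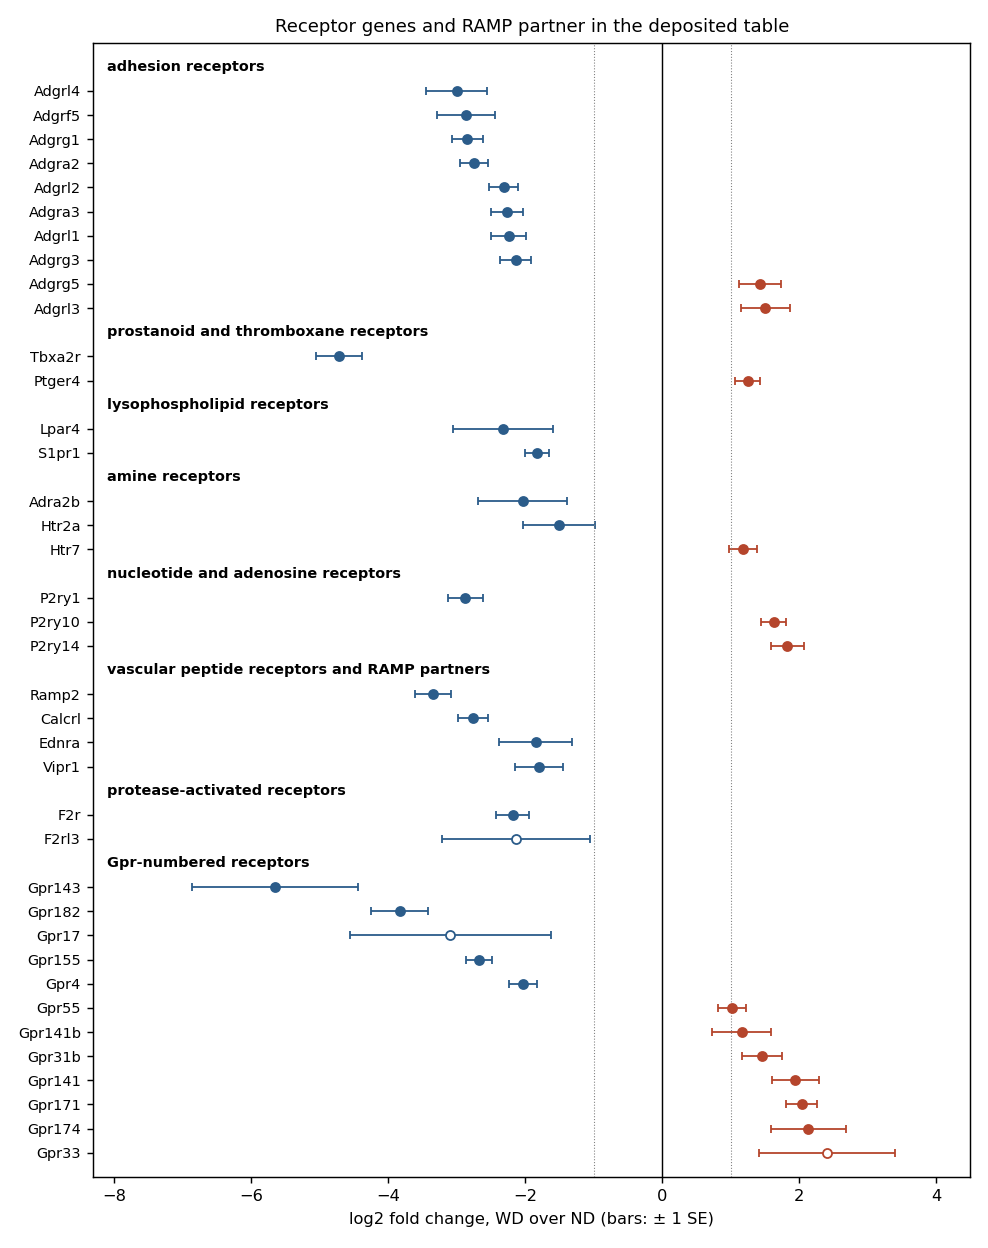
Log2 fold change (WD over ND) of the 38 members, grouped by ligand class; bars are ± 1 SE, filled points have an adjusted p below 0.05 and open points (Gpr33, Gpr17 and F2rl3) do not, and dotted lines mark the limits of 1 and -1 used for listing. Adhesion receptors lie mostly on the lower side, as most listed genes do, and Gpr-numbered receptors on both sides.

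Markers of other cell types moved in the same comparison. The marker lists were chosen with earlier results of these data known, so the counts describe the lists and test nothing. All 20 markers of liver sinusoidal endothelial cells on the list used here (Gpr182 is one of them) fell per the authors' deposited table, with a median log2 fold change of -3.16 and a range from -4.12 to -1.49. Stellate cell and fibroblast markers fell in 9 of 15 cases in that table, and none rose. On the higher side stood 9 of 20 T and NK cell markers, 6 of 12 monocyte markers, 4 of 10 dendritic cell markers, 7 of 10 mast cell and basophil markers and 2 of 10 B and plasma cell markers per the authors' deposited table. Zbtb46 was the dendritic cell marker and Kit the mast cell marker that fell. None of 15 Kupffer cell and macrophage markers was listed, so the label could not be checked against them, nor were any of 10 neutrophil markers. Of 10 hepatocyte markers 3 rose and none fell, and of 10 platelet and erythroid markers only Epor fell, per the authors' deposited table. Summed marker levels per diet could not be formed without values per library, and the part of these cell types in the changes of the members was not tested.

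Of 8 annotated prostanoid and thromboxane receptor genes that fit the rule, 2 were listed, and they moved in opposite directions. The others have no value. Tbxa2r, the thromboxane A2 receptor, through which thromboxane contracts vessels and activates platelets (ENSMUSG00000034881, chromosome 10, 81328731 to 81335172, plus strand, positions in mm10 here and for the other genes), fell 26.2-fold per the authors' deposited table, with a log2 fold change of -4.71 ± 0.34 and an adjusted p of 1.34e-41. Only Gpr143, at a far lower mean count, had a larger fall among the members. Ptger4, a prostaglandin E2 receptor that raises cyclic AMP (chromosome 15, 5206661 to 5244187, minus strand), rose 2.37-fold per the authors' deposited table (log2 1.25 ± 0.18, adjusted p 4.39e-11). Its mean normalized count there was 577, against 83.8 for Tbxa2r. A processed pseudogene on the other strand shares 15.3% of the annotated exon bases of Ptger4. Of 13 genes for making, exporting and degrading prostanoids, 1 rose and 3 fell per the authors' deposited table. The inducible cyclooxygenase gene Ptgs2 rose (1.17 ± 0.27), while Ptges, a prostaglandin E synthase gene, fell (-1.55 ± 0.29) in the same table. The prostaglandin transporter genes Slco2a1 (-3.21 ± 0.28) and Abcc4 (-1.40 ± 0.20) fell as well per the authors' deposited table. The thromboxane synthase gene Tbxas1 was not listed.

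The bases before the start of 7 members are shown as examples. The member with the smallest p, Gpr155, is not among them. No annotated exon of GENCODE M21 falls in the windows shown. These windows are a selection, so shares of matches are to be taken from the counts over all windows below. They come from RefSeq (GRCm38.p6), in which 31 of the 38 members had 40 promoter windows, and each window is the 250 bases before the start. Capitals mark AGGAAG or its reverse complement CTTCCT, a core bound by ETS factors, a family active in endothelial and blood cells. Tbxa2r has 2 windows: the one printed (chr10:81328018-81328267, plus strand) held 2 such matches, and the one nearer to the annotated gene start (chr10:81328453-81328702) held 0.
Tbxa2r: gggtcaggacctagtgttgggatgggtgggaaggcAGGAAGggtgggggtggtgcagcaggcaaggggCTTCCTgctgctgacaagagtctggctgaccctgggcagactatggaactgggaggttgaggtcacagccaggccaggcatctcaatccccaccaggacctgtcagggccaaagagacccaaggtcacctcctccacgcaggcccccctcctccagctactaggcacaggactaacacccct
The letters were found in 10 of 21 windows of lower members (47.6%), in 8 of 17 windows of higher members (47.1%) and in 29.5% of all 32851 RefSeq windows. The higher and lower members thus had like shares. CCACCC, a core of KLF factors, was found on either strand in 42.9%, 35.3% and 28.1% of these sets in the same order. AACAAT, a core of SOX factors, was in 4.76%, 11.8% and 9.42%. The cyclic AMP response element TGACGTCA was in no window of the called members and in 1.55% of all windows. Each motif was counted whether or not it overlapped another, several windows belong to the same gene, and a match is a description of letters only.

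All 4 listed genes of the vasoactive peptide receptors and their partners fell, of 9 annotated genes in the class, and the others have no value. Among all listed genes 61.4% were called lower, so nothing is read from this shared direction. Ramp2, the accessory protein that turns the calcitonin receptor-like receptor into an adrenomedullin receptor (ENSMUSG00000001240, chromosome 11, 101246028 to 101259546, plus strand), fell 10.2-fold per the authors' deposited table (log2 -3.35 ± 0.26, adjusted p 8.86e-35). Calcrl, the gene of that receptor (chromosome 2, 84330626 to 84425411, minus strand), fell 6.77-fold (-2.76 ± 0.22, adjusted p 4.42e-34) per the authors' deposited table. The 95% intervals of both genes in log2 units, from -3.86 to -2.83 for Ramp2 and from -3.19 to -2.33 for Calcrl, overlapped. Adm, the gene of their ligand adrenomedullin, stood at -1.86 ± 0.28 per the authors' deposited table. Ramp1 and Ramp3, which give Calcrl other ligand preferences, were not listed. In the annotation, 33.4% of the exon bases of Ramp2 are shared with Vps25 on the same strand, and Vps25 was not listed.

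Vipr1, a receptor for vasoactive intestinal peptide that raises cyclic AMP (ENSMUSG00000032528, chromosome 9, 121642716 to 121672954, plus strand), fell 3.47-fold per the authors' deposited table (-1.79 ± 0.35, adjusted p 3.31e-06). Ednra, the endothelin receptor of contractile cells such as stellate cells, fell to a like degree but at a mean count of 27.8 (-1.85 ± 0.54, adjusted p 0.00337 per the authors' deposited table). Its 95% interval reached -0.79. The window before Vipr1 (chr9:121642466-121642715, plus strand) is shown as the one with the highest GC content among the lower members, 72.8%, and it holds no ETS core.
Vipr1: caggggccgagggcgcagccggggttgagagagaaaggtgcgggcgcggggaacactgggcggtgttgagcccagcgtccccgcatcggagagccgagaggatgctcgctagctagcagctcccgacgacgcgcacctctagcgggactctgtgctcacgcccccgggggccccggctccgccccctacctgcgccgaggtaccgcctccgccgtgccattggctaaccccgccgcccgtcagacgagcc
Of 17 genes for ligands and converting enzymes of these receptors, 2 rose and 2 fell per the authors' deposited table. Besides Adm, the peptidase gene Dpp4 fell (-2.29 ± 0.27), and the peptidase genes Ace (1.20 ± 0.17) and Mme (2.73 ± 1.0, at a mean count of 3.68) rose in the same table. The endothelin genes Edn1, Edn2 and Edn3 were not listed.

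Both listed receptors for lysophospholipids in the S1pr and Lpar families fell. P2ry10, Gpr174 and Gpr55, which respond to other lysophospholipids, rose and are given below. S1pr1, the sphingosine 1-phosphate receptor that keeps endothelial junctions tight and guides lymphocytes out of lymphoid tissue (chromosome 3, 115710433 to 115715072, minus strand), fell 3.54-fold per the authors' deposited table (-1.82 ± 0.18, adjusted p 1.07e-22). Its mean normalized count was 850 there. Lpar4, a lysophosphatidic acid receptor, fell at a mean count of 6.44 (-2.32 ± 0.73, adjusted p 0.00753 per the authors' deposited table). Among all listed genes 61.4% were called lower, so nothing is read from the direction of these receptors or of the genes around their ligands. Of 11 genes around the ligands, 7 were not listed, none rose and 4 fell per the authors' deposited table. They were the exporter gene Spns2 (-2.80 ± 0.18), by which endothelium releases sphingosine 1-phosphate, the lipid phosphatase genes Plpp1 (-3.21 ± 0.26) and Plpp3 (-2.51 ± 0.21), and the sphingosine 1-phosphate phosphatase gene Sgpp1 (-1.62 ± 0.10, the most precise of the 4), all per the authors' deposited table. Sinusoidal endothelial markers and 9 of 15 stellate cell and fibroblast markers fell in the same comparison. Their part in the values of these genes was not tested.

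Of 13 annotated genes in the nucleotide and adenosine class, which was grouped by name, 3 were listed, 1 lower and 2 higher. P2ry1, an ADP receptor known from platelets and endothelium, fell 7.31-fold per the authors' deposited table (-2.87 ± 0.26, adjusted p 5.02e-27). An antisense gene shares 23.1% of its annotated exon bases, and the sources used here do not say whether counting kept strands apart. P2ry10, which despite its name responds to lysophosphatidylserine (chromosome X, 107088492 to 107104974, plus strand), rose 3.09-fold (1.63 ± 0.19, adjusted p 1.04e-16) per the authors' deposited table. P2ry14, a receptor for UDP-glucose (chromosome 3, 59113855 to 59153618, minus strand), rose 3.55-fold per the authors' deposited table (1.83 ± 0.24, adjusted p 2.16e-13). Gpr174, a lysophosphatidylserine receptor of lymphocytes on chromosome X, rose too, at a mean count of 10.5 (2.13 ± 0.55, adjusted p 0.000677 per the authors' deposited table). The window before P2ry10 (chrX:107088242-107088491, plus strand) has a GC content of 43.2% and 1 ETS core.
P2ry10: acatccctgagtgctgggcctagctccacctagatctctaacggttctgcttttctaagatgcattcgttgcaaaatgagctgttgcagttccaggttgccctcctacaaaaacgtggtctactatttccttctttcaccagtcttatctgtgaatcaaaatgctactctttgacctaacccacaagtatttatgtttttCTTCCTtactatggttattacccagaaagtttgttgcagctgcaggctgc
Of 10 genes that release, degrade or take up nucleotides and adenosine, 1 rose and 2 fell per the authors' deposited table. Entpd1, the ectonucleotidase that removes extracellular ATP and ADP, rose (1.19 ± 0.14), while adenosine deaminase (Ada, -2.11 ± 0.19) and the nucleoside transporter gene Slc29a1 (-1.04 ± 0.20) fell per the authors' deposited table. No adenosine receptor gene was listed.

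F2r, the thrombin receptor (chromosome 13, 95601803 to 95618487, minus strand), fell 4.54-fold per the authors' deposited table (-2.18 ± 0.24, adjusted p 1.28e-17), at a mean count of 1018. F2rl3, another thrombin-cleaved receptor, had a similar value, -2.13, but with an SE of 1.08 at a mean count of 2.23 it did not pass (adjusted p 0.131 per the authors' deposited table). Its unadjusted p of 0.0490 lay just inside the limit of the table. Of 9 genes of the thrombin and protein C pathway, Tfpi (-1.90 ± 0.20), an inhibitor of tissue factor, and Thbd (-1.41 ± 0.22), the thrombin-binding thrombomodulin gene, fell per the authors' deposited table. Procr, the protein C receptor gene, rose there (1.16 ± 0.42, adjusted p 0.0236).

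Of the amine receptors 3 were listed, 1 higher and 2 lower. Htr7, a serotonin receptor coupled to cyclic AMP, rose 2.27-fold per the authors' deposited table (1.18 ± 0.21, adjusted p 1.40e-07) at a mean count of 64.9. Adra2b, an alpha-adrenergic receptor (-2.04 ± 0.64, adjusted p 0.00797), and Htr2a, a serotonin receptor of smooth muscle and platelets (-1.50 ± 0.52, adjusted p 0.0163), fell per the authors' deposited table at mean counts of 12.8 and 11.7. The 95% intervals of Adra2b, Htr2a and Htr7 all reached inside 2-fold.

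Adhesion receptors were the largest class after the Gpr-numbered genes: 8 fell and 2 rose per the authors' deposited table. Among all listed genes 61.4% were called lower, so nothing is read from the direction of this class. The 8 lower members spanned a narrow range, from -3.0 for Adgrl4 to -2.14 for Adgrg3 on the log2 scale. Adgra2, a co-receptor for Wnt signals in blood vessels (chromosome 8, 27085583 to 27123436, plus strand), had the smallest p among them, with -2.74 ± 0.21 and an adjusted p of 5.67e-38 per the authors' deposited table. Adgrg1, which binds collagen and is also known from cytotoxic lymphocytes, followed at -2.84 ± 0.22 (adjusted p 1.92e-35), and Adgrg3 stood at -2.14 ± 0.23 per the authors' deposited table. Adgrl4 and Adgrf5, both known from endothelium, were at -3.0 and -2.86 on the log2 scale (8.0-fold and 7.28-fold lower) per the authors' deposited table. Their SE values of 0.45 and 0.42 were about as wide as that of Gpr182, also a high-count member.

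Latrophilin genes were listed with different signs. Adgrl1 (-2.24 ± 0.26) and Adgrl2 (-2.31 ± 0.21) fell, whereas Adgrl3 rose (1.51 ± 0.36, adjusted p 0.000238) per the authors' deposited table. Adgra3, a relative of Adgra2, was at -2.26 ± 0.24 there. Adgrg5 rose 2.70-fold per the authors' deposited table (1.43 ± 0.31, adjusted p 2.95e-05). The windows before Adgrl4 (chr3:151437632-151437881), Adgrg3 (chr8:95017442-95017691) and Adgrg5 (chr8:94923444-94923693), all on the plus strand, are set side by side. The last 2 genes lie in the same locus, with Adgrg1 between them, and had opposite changes. The windows of Adgrg1, into which annotated exons reach, hold 0 ETS cores and are not shown. Each of the 3 windows shown here holds 1 ETS core.
Adgrl4: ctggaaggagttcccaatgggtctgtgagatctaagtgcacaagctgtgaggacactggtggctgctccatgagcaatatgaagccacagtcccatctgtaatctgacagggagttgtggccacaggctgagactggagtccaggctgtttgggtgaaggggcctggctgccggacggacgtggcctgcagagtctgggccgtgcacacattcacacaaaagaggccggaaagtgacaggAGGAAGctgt
Adgrg3: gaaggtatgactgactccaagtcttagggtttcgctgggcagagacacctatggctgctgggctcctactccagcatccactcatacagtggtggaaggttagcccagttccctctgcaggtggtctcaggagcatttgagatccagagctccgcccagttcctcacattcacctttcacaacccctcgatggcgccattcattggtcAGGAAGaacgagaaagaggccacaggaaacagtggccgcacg
Adgrg5: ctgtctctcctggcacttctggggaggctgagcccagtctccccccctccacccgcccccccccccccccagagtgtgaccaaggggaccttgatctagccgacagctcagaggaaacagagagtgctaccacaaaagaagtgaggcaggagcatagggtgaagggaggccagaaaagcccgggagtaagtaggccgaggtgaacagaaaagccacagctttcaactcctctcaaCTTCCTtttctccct
Adgre1 and Adgre5, the adhesion receptors of macrophages and other leukocytes, were not listed.

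Of the 12 Gpr-numbered genes, 6 rose, 4 fell and 2 did not pass per the authors' deposited table. Gpr155, a lysosomal membrane protein that senses cholesterol (chromosome 2, 73341506 to 73386572, minus strand), had the smallest p of all members, with a 6.39-fold fall (-2.68 ± 0.19, adjusted p 1.47e-42) per the authors' deposited table. Gpr4, a proton-sensing receptor of endothelium, fell 4.08-fold (-2.03 ± 0.21) in that table. Gpr182, a receptor of sinusoidal and lymphatic endothelium that takes up chemokines (chromosome 10, 127747276 to 127751732, minus strand), fell 14.2-fold (-3.83 ± 0.41, adjusted p 4.19e-19) per the authors' deposited table. Gpr143, known from pigment cells, had the most negative value of all members per the authors' deposited table, -5.65, with an SE of 1.22 at a mean count of 6.19, and its 95% interval ran from -8.04 to -3.26.

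Of the higher Gpr-numbered genes, Gpr174 (above) had the largest fold among those called, 4.38, and Gpr171 the smallest p. Gpr171, an inhibitory receptor of T cells (chromosome 3, 59096448 to 59101821, minus strand), rose 4.10-fold per the authors' deposited table (2.04 ± 0.22, adjusted p 3.31e-18). Gpr141, an orphan receptor of myeloid cells (chromosome 13, 19749682 to 19824257, minus strand), rose 3.85-fold (1.94 ± 0.34, adjusted p 1.79e-07) per the authors' deposited table. Gpr55, a receptor for lysophosphatidylinositol, was the listed member closest to the 2-fold limit, at 1.02 ± 0.20 (adjusted p 6.03e-06) per the authors' deposited table. Gpr31b stood at 1.46 ± 0.30 per the authors' deposited table, but 87.6% of the 50-base words of its transcripts also occur in other genes, among them Gpr31a, so reads could have been shared and its value is uncertain. Gpr141b, annotated as a non-coding RNA gene in GENCODE M21, was the called member nearest to the limit on adjusted p (1.16 ± 0.43, adjusted p 0.0269), and Gpr33 was just outside it (2.41 ± 0.99, adjusted p 0.0516) per the authors' deposited table. Gpr17 had a mean count of 1.83 and no adjusted p there. The window before Gpr141 (chr13:19824258-19824507, minus strand) had the lowest GC content of the higher members' windows, 34.8%, and 2 ETS cores.
Gpr141: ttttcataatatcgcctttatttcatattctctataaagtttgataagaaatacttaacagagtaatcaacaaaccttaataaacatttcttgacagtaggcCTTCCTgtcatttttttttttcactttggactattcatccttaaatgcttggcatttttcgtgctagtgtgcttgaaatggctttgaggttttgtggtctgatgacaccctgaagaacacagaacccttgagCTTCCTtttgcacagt
The median GC content was 48.4% over 17 windows of higher members and 60.4% over 21 windows of lower members, and the ranges, 34.8 to 82.0% and 37.6 to 72.8%, overlapped. Some markers of T and NK cells, monocytes, dendritic cells, mast cells and basophils, B and plasma cells and hepatocytes rose in the same comparison. Zbtb46 and Kit on these lists fell, and the part of these cell types in the values was not tested.

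**Figure D2:**
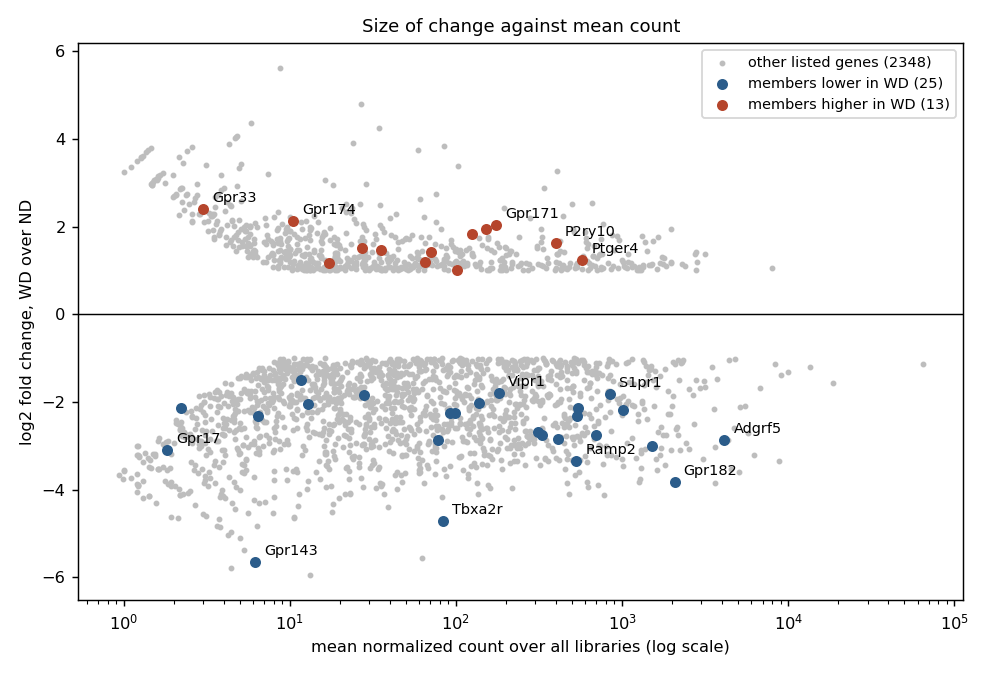
Log2 fold change (WD over ND) against the mean normalized count over all libraries (log scale) for the 38 members and the other listed genes; no gene lies between -1 and 1 because such genes were not listed. Tbxa2r, at a mean count of 83.8, lies below most listed genes of like count, and the members of lowest count, such as Gpr17 at 1.83, carry the least precise values.

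Levels were compared per kilobase of annotated exon. By this measure Gpr182 (523 mean normalized counts per kilobase), Adgrf5 (459), Adgrl4 (329), F2r (305) and S1pr1 (279) were the highest members, and all of them fell. P2ry10 (133) and Ptger4 (86.8) were the highest among members that rose, on the same scale. Ramp2 (161) and Calcrl (143) were close to each other on the per kilobase scale. The level of Ramp2 is uncertain, since 33.4% of its annotated exon bases are shared with Vps25. Tbxa2r stood at 43.6 and Vipr1 at 31.3 counts per kilobase. These levels are means over both diets from the authors' deposited table, with no SD. Of the members, 33 had a mean count of at least 10 and 26 exceeded the median count of the table, 37.5.

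Members of a locus did not always move together. Gpr171 and P2ry14 lie 12 kb apart on chromosome 3, and both rose per the authors' deposited table. Gpr171 and P2ry14 also lie inside the gene body of Med12l on the other strand, which rose as well (1.72 ± 0.43, adjusted p 0.000504 per the authors' deposited table) at a mean count of 19.1, and their exons share no base with its exons. Adgrg5, Adgrg1 and Adgrg3 lie within chromosome 8, 94923694 to 95045250, with gaps of 31.5 and 3.47 kb and no other coding gene in those gaps. Adgrg5 rose while Adgrg1 and Adgrg3 fell per the authors' deposited table.

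On chromosome X, Lpar4 fell per the authors' deposited table, whereas P2ry10, 155 kb further on, and Gpr174, another 151 kb further, rose. P2ry10b between them was not listed, and 3.79% of the 50-base words of P2ry10 also occur in it. Gpr141b and Gpr141, 16.7 kb apart on chromosome 13, both rose and shared no 50-base word. Gpr182 overlaps Zbtb39 on the other strand over 74 exon bases, and Zbtb39 fell far less (-1.05 ± 0.16 per the authors' deposited table) than Gpr182.

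**Figure D3:**
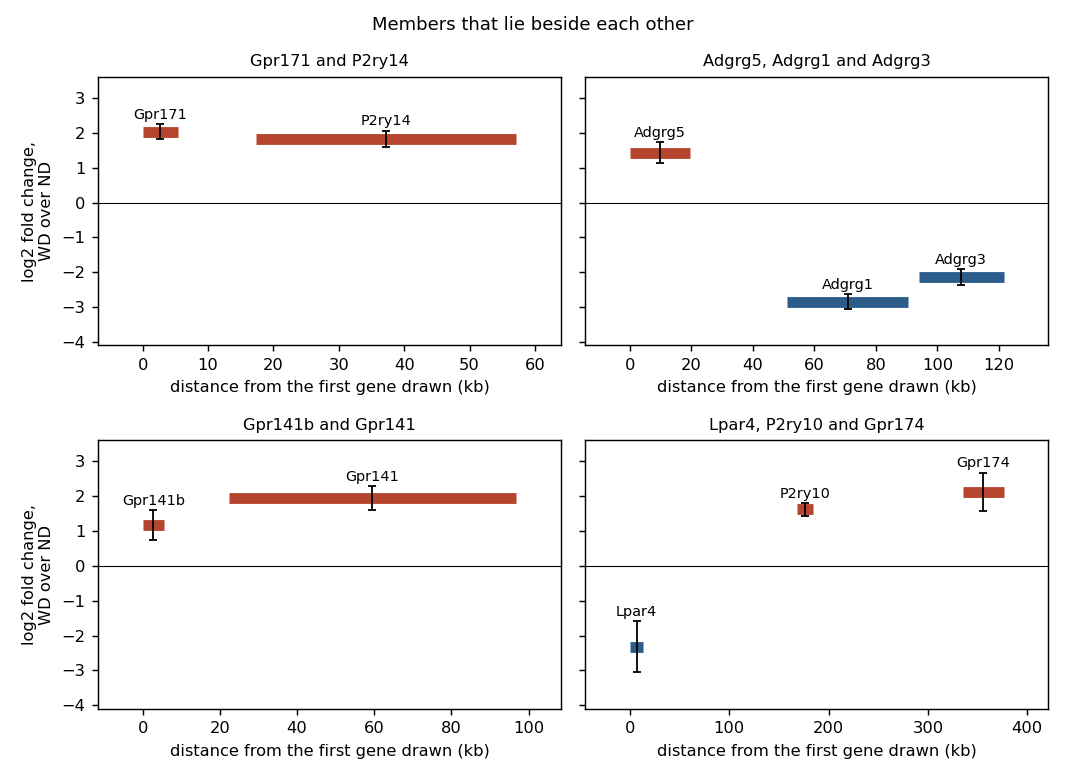
Log2 fold change (WD over ND, vertical axis) of members that lie within 200 kb of each other, against distance along the chromosome in kilobases; coloured bars span the gene bodies, and black bars are ± 1 SE. Gpr171 with P2ry14 and Gpr141b with Gpr141 share a direction, and Adgrg5 differs from Adgrg1 and Adgrg3.

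Partner genes of the receptors were mostly not listed. Over 10 lists of ligand, metabolism and signalling partners with 139 genes, 7 rose, 22 fell, 1 was listed without passing and 109 were not listed per the authors' deposited table. The 22 lower genes are of 30 listed, and among all listed genes 61.4% were called lower, so nothing is read from their direction. Of 29 G protein subunit genes, 4 fell and none rose: Gng11 (-2.76 ± 0.19), Gna11 (-1.64 ± 0.16), a subunit that activates phospholipase C, its relative Gna14 (-3.39 ± 0.45), and Gnao1 (-2.22 ± 0.48) per the authors' deposited table. Gnai1, named after its value was seen, was listed at -1.26 ± 0.55 without passing (adjusted p 0.0695 per the authors' deposited table). Of 10 adenylyl cyclase genes, Adcy6 (-1.46 ± 0.22) and Adcy5 (-1.99 ± 0.79, adjusted p 0.0424) fell per the authors' deposited table.

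Genes that end the signal split. Grk3, a receptor kinase gene, rose (1.47 ± 0.13, adjusted p 5.33e-26) and Arrb1, an arrestin gene, fell (-1.03 ± 0.10) per the authors' deposited table, out of 12 kinases and arrestins. Of 21 RGS genes, Rgs3 (-1.64 ± 0.21) and Rgs5 (-1.68 ± 0.56), the latter also a marker of mural and stellate cells, fell, and Rgs16 rose (1.58 ± 0.42) per the authors' deposited table. None of 7 leukotriene synthesis genes was listed, and neither was any member of the metabolite and leukotriene receptor class. Sinusoidal endothelial and stellate cell markers fell in the same comparison, and their part in these values was not tested.

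**Figure D4:**
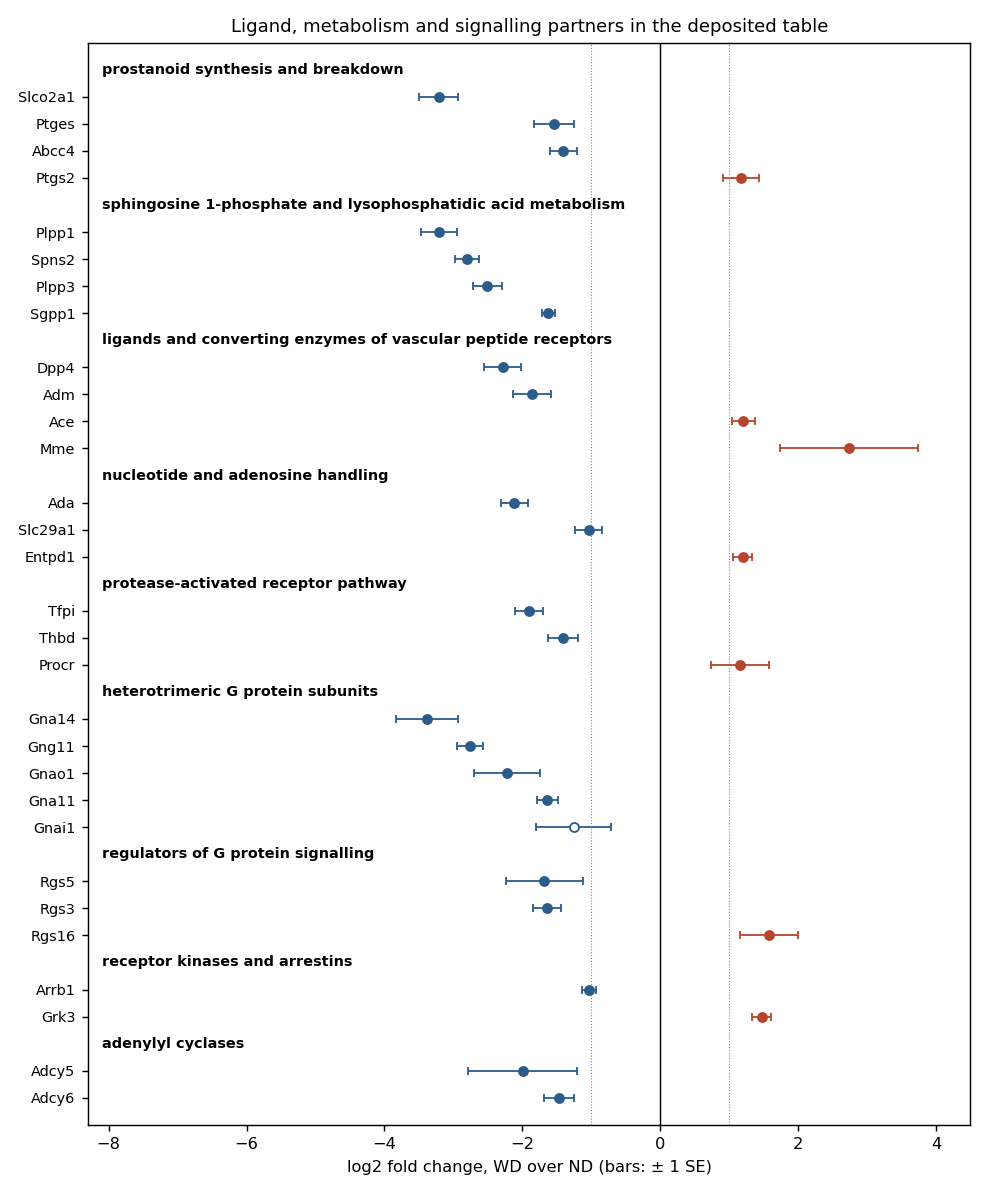
Log2 fold change (WD over ND) of the 30 listed partner genes, grouped by list; bars are ± 1 SE, filled points have an adjusted p below 0.05 and the open point (Gnai1) does not. The listed G protein subunits and cyclases all lie on the lower side.

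Coverage was also counted by class. GENCODE M21 holds 180 protein-coding genes that fit the rule by name, including 4 Htra protease and 2 Htr3 channel genes that are no such receptors, and 34 of the 180 (18.9%) were called in either direction per the authors' deposited table. Among all genes tested by the authors this share was 11.4%. By class, 10 of 27 adhesion receptors, 2 of 8 prostanoid receptors and 4 of 9 vascular peptide receptors and partners were called. So were 9 of 73 Gpr-numbered genes and 3 of 27 genes in the amine class. The amine class includes the 4 Htra and 2 Htr3 genes, so the share called among its receptors alone was higher. These shares were not compared by a test, their denominators include genes that may not have been measured, and several single names were put in the rule with results known.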

How the data were processed

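RNA of 8 libraries, placed in the ND or WD group by the diet label, was compared by the authors in 1 table. The submitters' processing notes name the build mm10 and, without roles or versions, the tools DESeq, edgeR, featureCounts, HISAT2, STAR, STAR-Fusion and StringTie. Per the file headers, the signal deposited for each gene is its mean normalized count over libraries. The log2 fold change deposited by the authors is WD over ND, with its SE in log2 units. The deposited score is their ratio (largest departure 7.06e-08). The deposited p-value is below 0.05 for every gene, and the deposited adjusted p-value is empty for 77 genes, which were not counted as called. No counts per library were used, so depth per library is unknown and no SD, library removal or permutation could be computed; the number of libraries, 4 per diet, limits the precision.

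A gene was called at an adjusted p below 0.05 from the authors' test across all genes (columns as DESeq2 writes them). Nothing was refitted. The number of tested genes, 17531, was recovered by solving the adjusted p-values for it, which gave whole ranks (tolerance 0.02) for 91.0% of the genes that have one, and the step returned 15000 on simulated data with 15000 tests. The 95% intervals assume a normal error with the authors' SE. Every member could be named, by class. Of each partner list, called genes were named (at most 4, by p), and unlisted genes and Gnai1 were named after their status was seen. Positions and exon lengths are from GENCODE M21 (mm10), matched by gene ID for all 38 members, and promoters are from RefSeq. Some items are not reported here. Members and lists were chosen with earlier results of these data known. Alternatives were a stricter adjusted p, Benjamini-Yekutieli adjustment, no adjustment, an interval beyond 2-fold, a mean count minimum of 10, and other membership. Python 3.11.15, pandas 2.3.3, numpy 2.4.6, scipy 1.17.1 and matplotlib 3.10.9 were used.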

Additional observations from a re-analysis of the deposited data

How the results depend on the processing

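Counting only members whose 95% interval lay wholly beyond 2-fold left 5 of the 12 higher members (P2ry10, P2ry14, Gpr141, Gpr171 and Gpr174) and 19 of the 23 lower ones. Under every other alternative run, between 11 and 13 members were higher and between 20 and 25 lower. Adra2b, Gpr141b, Htr2a and Lpar4 no longer passed with Benjamini-Yekutieli adjustment, and Gpr141b and Htr2a not at an adjusted p below 0.01. The median log2 fold change of -2.08 lay between -2.04 and -2.03 with other members or a count minimum, and a mean weighted by precision was -0.99, with the same sign. Leaving out replicates was not run, since the table holds no values of single libraries. No paired analysis was possible because the table holds 1 value per gene for the whole comparison and the labels pair no mice. Depth limits the members below a mean count of 10: Gpr143, Lpar4, Gpr33, F2rl3 and Gpr17.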

Other observations

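Among the abundant members, precision did not follow abundance. Of 4 members with a mean count of at least 1000, Adgrf5, Gpr182 and Adgrl4 had an SE of log2 fold change above 0.4 in the authors' deposited table, and F2r had 0.24. Over the 146 listed genes at such counts the median SE was 0.20, and 17 exceeded 0.4. Of the 20 sinusoidal endothelial markers, among which Gpr182 is counted, 7 had an SE above 0.4, in a range from 0.14 to 0.43. Which libraries spread apart cannot be seen without values per library.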
